A study of Mus musculus with 22 samples.

Results

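Exon skipping and the choice of an exon's own splice sites can act on the same exon. The exons described here are skipped exons that come in more than 1 length: each shares its chromosome, its strand and exactly 1 of its ends with another skipped exon, so that the variants of an exon differ at 1 splice site. They were found by comparing the coordinates of the middle exon over all skipped-exon events of 7 mouse embryonic stem (ES) cell libraries, without using any measured level. The search gave 1749 of 10873 events, with 1554 of 10148 distinct exons, in 653 single genes. Of these events 44 lay in no annotated gene and 17 in several.

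The 7 groups have 2 replicates each, which the authors pooled, so that each group is 1 library. In TKO cells, which lack the DNA methyltransferases of Dnmt1, Dnmt3a and Dnmt3b, siRNA against HP1alpha, HP1beta and HP1gamma was given at 80, 80 and 120 nM (triple knock-down in TKO). In WT cells, the R1 line, the same siRNAs were given at 60 nM each (triple knock-down) or singly at 90 nM (HP1alpha, HP1beta and HP1gamma knock-down). TKO and WT cells were also sequenced without transfection. HP1 proteins, encoded by Cbx5 (HP1alpha), Cbx1 (HP1beta) and Cbx3 (HP1gamma), bind methylated histone H3, and the study asked whether they take part in how DNA methylation affects alternative splicing. All cells were grown with leukaemia inhibitory factor, and RNA of transfected cells was taken after 48 hours. Transfected cells were read as 101-base paired ends and untransfected cells as 50-base single ends, and the labels name no control siRNA. Knock-down, transfection and read type therefore cannot be told apart in any comparison of a knock-down with TKO or WT. TKO and WT are separate cell lines, so other differences between them cannot be told apart from the loss of the methyltransferases. Between the triple knock-downs of TKO and WT cells the siRNA dose differs too, and cannot be told apart from the cell line.

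During splicing the spliceosome joins a donor site at the end of an exon to an acceptor site, usually AG, at the start of the next. Where several usable acceptors or donors lie near each other, the same exon is made in variants that differ by the stretch between them. Acceptors 3 nucleotides apart, known as tandem or NAGNAG acceptors, add or remove a single amino acid in a coding exon, while a distance that is no multiple of 3 shifts the reading frame. Variants that lie farther apart can gain or lose longer stretches of protein or untranslated sequence.

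Cathepsin A (Ctsa), a lysosomal carboxypeptidase, shows what such a family looks like in sequence, and its acceptors are the only complete set that the available sequence windows cover. On chromosome 2, plus strand, 3 skipped exons shared the end 164833850 and began at 164833724, 164833773 and 164833808, which made exons of 127, 78 and 43 nucleotides. The windows below are from RefSeq (GRCm38.p6), 24 intron and 6 exon bases each, with the last 2 intron bases in capitals. They span chr2:164833700-164833729, chr2:164833749-164833778 and chr2:164833784-164833813, all near the annotated start of the gene.

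Ctsa 127-nucleotide exon: actttgaccactcccgaccctcAGgcccac
Ctsa 78-nucleotide exon: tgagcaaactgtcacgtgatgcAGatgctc
Ctsa 43-nucleotide exon: accagagctacacatgacttccAGtccaaa

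Each window ended its intron in AG. The 127-nucleotide exon of Ctsa had an inclusion level of 0.72 in TKO and 0.68 in WT, against 0.98 to 0.99 in the knock-downs. The 43-nucleotide exon had 0.97 in TKO, 0.98 in WT and 0.98 to 0.99 in the knock-downs. In WT the intervals of these exons did not overlap, with 0.55 to 0.79 for the longest exon and 0.93 to 1.0 for the shortest. The reads that fit only inclusion were nearly equal, 88 and 80 in TKO and 117 and 109 in WT for the longest and the shortest exon, and no read fitted only skipping in TKO or WT. The 127- and 78-nucleotide exons had 88 inclusion reads each in TKO, with levels of 0.72 and 0.94. A gap in level between variants of different length therefore does not always go with a gap in reads, so inclusion reads stand beside the levels below. These read counts are not scaled to exon length.

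The inclusion level is the authors' estimate, from 0 to 1, of inclusion of that exon against skipping within its own event. Each variant has its own event, so the levels of a pair need not add up to 1. They do not give the share of transcripts that use each splice site. The interval of a level is shown as deposited, at a probability not given in the sources used here. Total event reads were 4677236 to 9750348 in the knock-downs, 25200437 in TKO and 25941844 in WT. The exon variants had 1150 to 1401 events listed per knock-down library, 1710 in TKO and 1660 in WT, since an event is listed only with at least 100 reads. Median reads that fit either inclusion alone or skipping alone, called informative below, were 39 to 58 per variant in the knock-downs and 115 in TKO and in WT. Median interval width was 0.21 to 0.26 in the knock-downs and 0.11 in TKO and in WT. Cbx5, itself a gene with acceptors 4 nucleotides apart, had 50.5 RPM (reads of its deepest event, relative to all event reads of the library) in the triple knock-down in TKO, 56.2 in the triple and 43.0 in the HP1alpha knock-down, against 104.8 to 112.9 in the other 4 libraries. Cbx1 had 507.3 RPM in the HP1beta knock-down, 551.2 in the triple and 1003.2 in the triple knock-down in TKO, against 1521.7 and 1624.8 in the other knock-downs, 659.0 in TKO and 614.8 in WT. Cbx3 had 32.2 to 52.2 RPM in every transfected library, whichever gene was targeted, against 480.2 in TKO and 457.2 in WT. Dnmt3b had 79.6 RPM in the triple knock-down in TKO and 88.1 in TKO, against 169.7 to 239.0 in the 4 knock-downs of WT cells and 562.1 in WT. Dnmt3a had 26.4 and 33.7 RPM in these TKO libraries, against 77.6 to 135.7 in the knock-downs of WT cells and 74.8 in WT.

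Splice-site variants more often had an intermediate level than skipped exons in general. A level from 0.1 to 0.9 was found for 61.8% to 65.4% of variants in the knock-downs, 47.4% in TKO and 49.8% in WT. The shares over all events were 48.0% to 51.5% in the knock-downs, 39.8% in TKO and 40.2% in WT. Median interval width over all events was 0.15 to 0.18 in the knock-downs and 0.09 in TKO and WT, narrower than for the variants. Whether interval width bears on the intermediate levels was not tested. Variant exons had a median length of 117 nucleotides and median introns of 1517 nucleotides before and 1561 after them, against 104, 2057 and 1996 for all other skipped exons. The length was a multiple of 3 in 43.1% of the variant exons and 47.3% of the others.

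The variants formed 892 pairs, 557 with different acceptors and 335 with different donors. The commonest distance was 3 nucleotides, with 79 pairs, and 73 of these were acceptor pairs. At 4 nucleotides there were 46 pairs, and donors were as common as acceptors, 24 against 22. The classes held 22 pairs at 1 or 2 nucleotides, 79 at 3, 214 at 4 to 20 and 577 at over 20, where the median was 84 and the largest distance 9771. A multiple of 3 separated 33.6% of the pairs at 4 to 20 and 38.0% of those at over 20 nucleotides. Connected variants formed families, 651 of 2 exons and 64 of 3, and Smox, which encodes spermine oxidase, had the most, with 6.

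**Figure D1:**
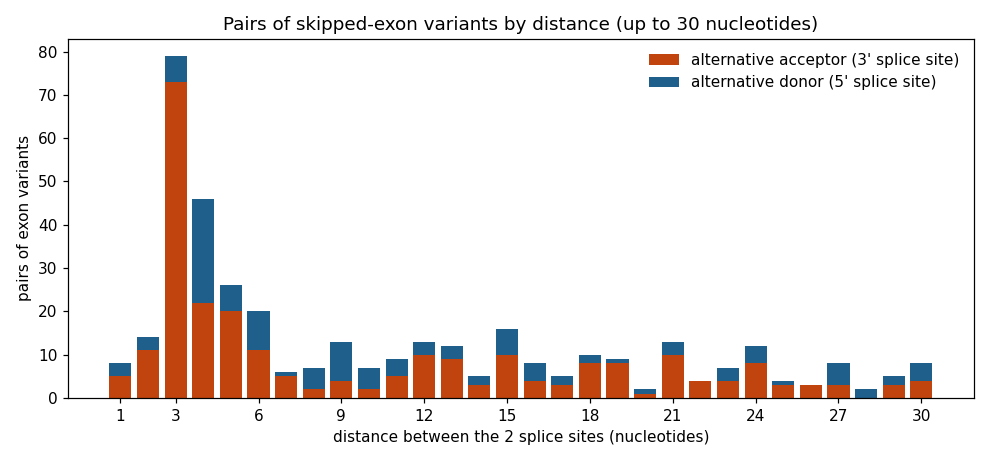
The number of pairs of exon variants (vertical axis) at each distance from 1 to 30 nucleotides (horizontal axis), with acceptor and donor pairs stacked. The bar at 3 nucleotides holds 73 acceptor and 6 donor pairs, while at 4 nucleotides the 22 acceptor and 24 donor pairs are close in number.

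Variants were compared in pairs within a library, using the 860 pairs whose neighbouring exons were identical. The variants of a pair share most of their reads. In WT all 814 listed pairs had the same total number of reads for both variants, and what separates them is which reads fit inclusion alone. These counts are not independent, so the levels of a pair are compared by their intervals and no test was run. A pair is called apart where the intervals do not overlap.

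Variants 3 nucleotides apart were mostly included alike, and where they differed the longer exon, made with the upstream acceptor or the downstream donor, was usually the higher. In TKO the longer exon had the higher level in 46 and the shorter in 11 of 76 pairs, and in WT in 41 and 16 of 73. The median absolute difference was 0.02 in TKO and 0.03 in WT. The intervals were apart in 5 pairs in TKO and in 4 in WT, with the longer exon higher in each. In the 5 knock-downs 2 to 9 pairs were apart, with 1 at most in favour of the shorter exon. Over the 45 pairs listed in all 7 libraries, the longer exon was higher everywhere in 14 and the shorter in 1.

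The pair of Prc1/Rccd1, a place where 2 genes overlap (Prc1 encodes a microtubule-bundling protein of cell division), was apart in all 7 libraries. Its exons at chr7:80313527-80313568 and chr7:80313530-80313568 are 42 and 39 nucleotides long. The longer exon had levels of 0.57 in the triple knock-down in TKO, 0.59 in the triple, 0.54 in the HP1alpha, 0.51 in the HP1beta and 0.51 in the HP1gamma knock-down, 0.55 in TKO and 0.52 in WT. The shorter exon had 0.24, 0.21, 0.25, 0.15 and 0.21 in these knock-downs, 0.43 in TKO and 0.40 in WT. The longer exon hardly varied, while the shorter was lower in every knock-down than in TKO and WT. Inclusion reads for the longer and shorter exon were 232 and 155 in TKO, and 240 and 159 in WT, against 172 and 54 in the HP1alpha knock-down. These values are beside the upstream exon that ends at 80313208. Beside the form of that exon that ends at 80313131, the longer Prc1/Rccd1 exon had 0.21 to 0.44 in the knock-downs, 0.43 in TKO and 0.39 in WT.

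Deaf1, which encodes a DNA-binding transcription factor, and Wbp1, which encodes a protein bound by WW domains, were apart in 4 libraries each, all knock-downs. The longer Deaf1 exon, at chr7:141301600-141301689, had levels of 0.74, 0.81, 0.80, 0.75 and 0.77 in the triple knock-down in TKO, the triple, the HP1alpha, the HP1beta and the HP1gamma knock-down, 0.61 in TKO and 0.66 in WT. The shorter had 0.56, 0.69, 0.65, 0.58 and 0.56 in the knock-downs in the same order, 0.50 in TKO and 0.61 in WT. In Deaf1 the longer exon was thus higher in each of the 7 libraries. In Wbp1 (chr6:83120772-83120876) the longer exon had 0.45 in TKO and 0.70 in WT, and the shorter 0.40 in TKO and 0.59 in WT. The Wbp1 intervals overlapped in TKO and WT, and the mean absolute difference over all 7 libraries was 0.194. Wbp1 is 1 of the larger families, with 5 exons.

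Pprc1, which encodes a coactivator related to PGC-1, was the pair with the opposite order. Its shorter exon, which starts 3 nucleotides into the 150-nucleotide exon at chr19:46062141-46062290, was higher in all 7 libraries. Levels of the longer and shorter exon were 0.18 and 0.36 in the triple knock-down in TKO, 0.23 and 0.33 in the triple, 0.25 and 0.42 in the HP1alpha, 0.20 and 0.35 in the HP1beta and 0.21 and 0.35 in the HP1gamma knock-down. They were 0.99 and 1.0 in TKO and in WT. Inclusion reads in TKO were 847 for the longer and 1027 for the shorter exon, and in WT 941 and 1115. Both Pprc1 levels were thus near the maximum in TKO and WT, where no read fitted only skipping and the inclusion reads favoured the shorter. These exons exclude each other in a transcript, so the levels set each against skipping and do not measure the choice of acceptor.

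Mrps10, which encodes a protein of the small mitochondrial ribosomal subunit, and Ccdc163 were apart in 3 and 2 libraries. For Mrps10 (chr17:47372573-47372645) levels of the longer and shorter exon were 0.80 and 0.71 in TKO and 0.92 and 0.66 in WT, with 94 and 76 inclusion reads in TKO and 120 and 57 in WT. Knock-down levels of Mrps10 were 0.58 to 0.90 for the longer and 0.12 to 0.53 for the shorter exon, on 1 to 7 inclusion reads for the shorter. For Ccdc163 (chr4:116709240-116709273) the levels were 0.57 and 0.19 in TKO and 0.83 and 0.17 in WT, on 1 or 2 inclusion reads for the shorter exon. The direction was the same in all 7 libraries for both genes, but the intervals were wide.

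**Figure D2:**
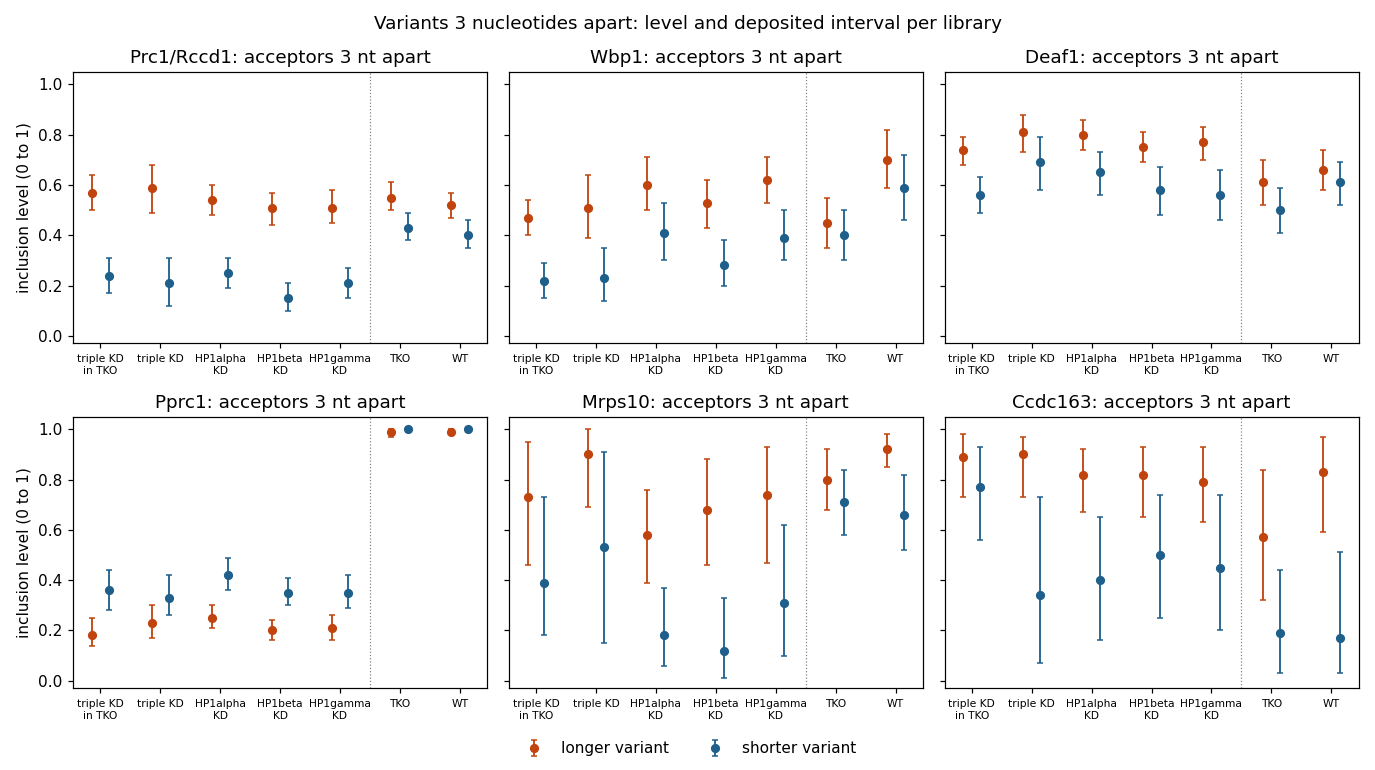
Inclusion level (0 to 1, vertical axis) of the longer and the shorter variant of 6 exons whose acceptors lie 3 nucleotides apart, in each library (horizontal axis; KD, knock-down). Points are deposited levels, bars deposited intervals and the dotted line parts transfected from untransfected libraries; the shorter Prc1/Rccd1 variant lies at 0.15 to 0.25 in the knock-downs, 0.43 in TKO and 0.40 in WT, and the Pprc1 pair lies at 0.18 to 0.42 in the knock-downs and 0.99 to 1.0 in TKO and WT.

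At 4 to 20 nucleotides the longer exon was more often the higher at acceptors in all 7 libraries, and at donors only in TKO, by a small margin. The longer exon of acceptor pairs was higher in 57 and the shorter in 28 of 124 pairs in TKO, and in 52 and 32 of 119 in WT. It was ahead in all 5 knock-downs too, for example in 53 against 28 of 88 acceptor pairs in the HP1gamma knock-down. For donor pairs the numbers were 34 and 31 of 84 in TKO and 26 and 38 of 83 in WT. Inclusion reads of acceptor and donor pairs together, not scaled to exon length, were more numerous for the longer exon in 120 pairs in TKO and 108 in WT. They were more numerous for the shorter in 52 and 51. Taking both sites together, the longer exon was higher in 91 and the shorter in 59 of 208 pairs in TKO, and in 78 and 70 of 202 in WT. The intervals were apart in 17 pairs in TKO (9 with the longer, 8 with the shorter exon higher) and in 15 in WT (8 and 7). The median absolute difference was 0.02 in both. All 15 pairs apart in WT had more inclusion reads for the exon with the higher level. Over the 122 pairs listed everywhere, the longer exon was higher in all 7 libraries in 27 and the shorter in 20.

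In 3 genes such a pair was apart in all 7 libraries. Trmt10b, of a family of tRNA methyltransferases, had the higher level for the inner of its acceptors, which lie 11 nucleotides apart. Its 109-nucleotide exon at chr4:45301236-45301344 had a level of 0.99 in TKO and 0.98 in WT, and 0.77 to 0.90 in the knock-downs. The 120-nucleotide exon had 0.80 in TKO and 0.72 in WT, but 0.07 to 0.13 in the knock-downs. Inclusion reads of the longer and shorter Trmt10b exon were 130 and 277 in TKO, 92 and 188 in WT, and 5 and 117 in the HP1alpha knock-down. A still longer variant of Trmt10b, 34 nucleotides beyond the shortest, stood at 0.71 in TKO, 0.65 in WT and 0.05 to 0.11 in the knock-downs.

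Prrc2c and Dag1 were apart in the other direction, each through donors at a distance that is no multiple of 3. Prrc2c, a large proline-rich protein gene, has donors 4 nucleotides apart, and its longer exon (chr1:162674099-162674151) had 0.82 to 0.94 in the knock-downs and 0.98 in both TKO and WT. The shorter Prrc2c exon had 0.27 to 0.36 in the knock-downs, 0.67 in TKO and 0.71 in WT. Inclusion reads of the longer and shorter exon of Prrc2c were 435 and 220 in TKO and 504 and 266 in WT. These values are beside the upstream exon at 162676691. Beside the upstream exon at 162675605 the longer Prrc2c exon had 0.46 to 0.50 in the knock-downs, 0.54 in TKO and 0.51 in WT, and the shorter 0.05 to 0.09, 0.38 and 0.32. Dag1 encodes dystroglycan, a receptor for the extracellular matrix, and its donors are 5 nucleotides apart. Its longer exon (chr9:108253101-108253157) had 0.74 to 0.93 in the knock-downs and 0.99 in TKO and WT, and its shorter exon 0.24 to 0.47 in the knock-downs, 0.67 in TKO and 0.82 in WT. Dag1 had 317 and 87 inclusion reads for the longer and shorter exon in TKO, and 354 and 100 in WT. Beside another upstream exon, which starts at 108263481 and not at 108263780, the shorter Dag1 exon was lower, with 0.19 to 0.42 in the knock-downs, 0.39 in TKO and 0.49 in WT.

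Rbm7, Dlgap4 and 0610010K14Rik were apart in 6 libraries each. Rbm7 encodes an RNA-binding subunit of the nuclear exosome targeting complex, and its shorter exon, with the donor 4 nucleotides upstream, had 0.97 to 0.99 in the knock-downs, 0.98 in TKO and 0.94 in WT. The longer Rbm7 exon (chr9:48490844-48490938) had 0.58 to 0.87 in the knock-downs, 0.59 in TKO and 0.51 in WT. The gap in Rbm7 was no larger in the knock-downs than in TKO and WT. Dlgap4, a gene for a protein of postsynaptic scaffolds with donors 17 nucleotides apart, had a longer exon (chr2:156748332-156748420) at 0.31 to 0.40 in the knock-downs, 0.46 in TKO and 0.36 in WT. The shorter Dlgap4 exon had 0.02 to 0.03 in the knock-downs, 0.27 in TKO and 0.22 in WT. The donors of 0610010K14Rik lie 11 nucleotides apart, and its longer and shorter exon stood at 0.85 and 0.78 in TKO and 0.79 and 0.72 in WT, against 0.65 to 0.70 and 0.29 to 0.33 in the knock-downs.

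**Figure D3:**
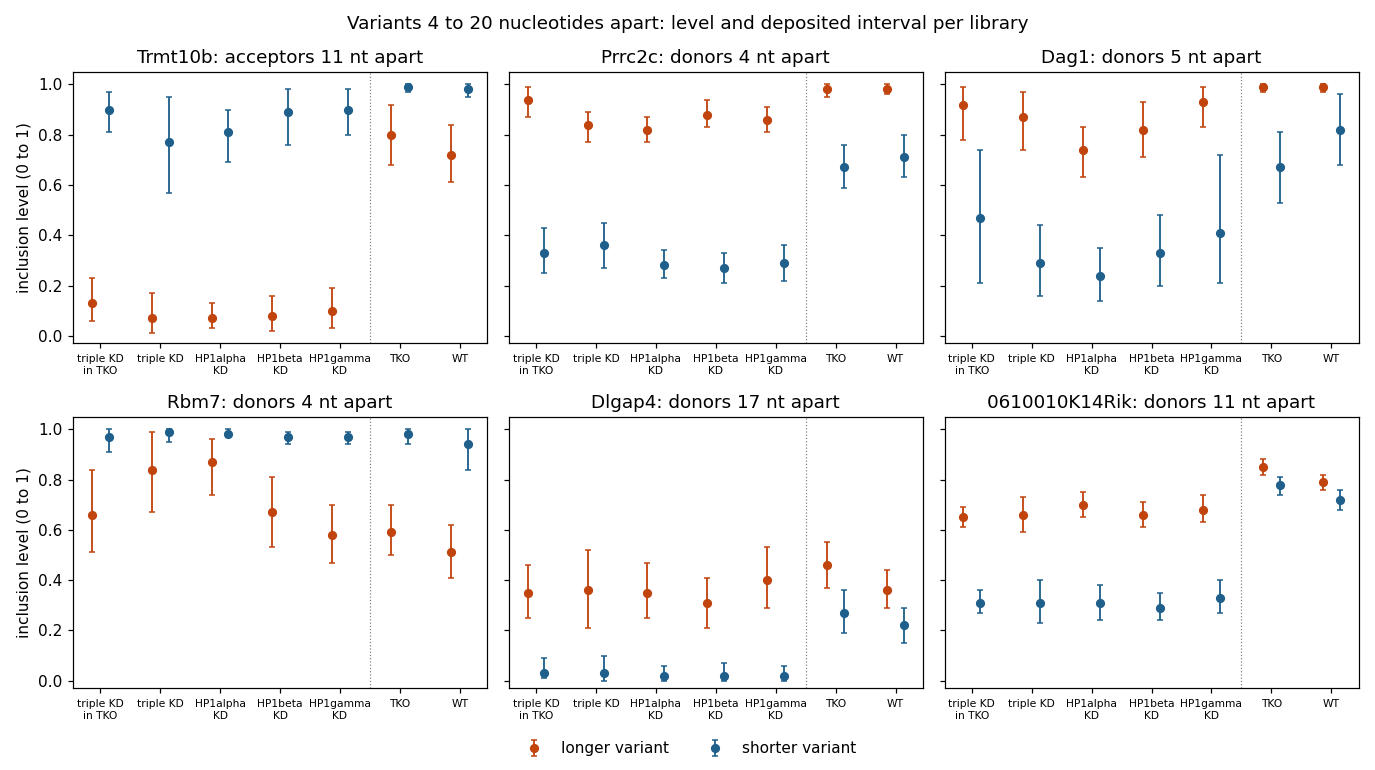
Inclusion level (0 to 1, vertical axis) of the longer and the shorter variant of 6 exons with splice sites 4 to 20 nucleotides apart, in each library (horizontal axis; KD, knock-down), with deposited intervals as bars and a dotted line between transfected and untransfected libraries. The shorter variant is the higher in Trmt10b and Rbm7, the longer in the other 4 genes, and the longer Trmt10b variant lies at 0.07 to 0.13 in the knock-downs, 0.80 in TKO and 0.72 in WT.

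Over 20 nucleotides, variants differed more and in both directions. The intervals were apart in 135 of 534 pairs in TKO (68 with the longer, 67 with the shorter exon higher) and in 128 of 518 in WT (67 and 61). That is 25.3% and 24.7% of the pairs, against 8.2% and 7.4% at 4 to 20 nucleotides and 6.6% and 5.5% at 3 nucleotides. In 118 of the 135 pairs in TKO and 110 of the 128 in WT the exon with the higher level also had more inclusion reads. Over all pairs of this class the longer exon had more inclusion reads in 402 and the shorter in 103 in TKO, and in 394 and 101 in WT. Reads are not scaled to exon length, so where the longer exon is higher they are no separate check of the level. Donor pairs were apart in 31.5% in TKO and 29.0% in WT, and acceptor pairs in 21.0% and 21.7%. The longer exon was higher with intervals apart in all 7 libraries in 12 of the 360 pairs listed everywhere, and the shorter in 23.

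The exons of this class named next were apart in all 7 libraries, with gaps of differing size. Klhdc4, which encodes a kelch-domain protein, has acceptors 124 nucleotides apart. Its 92-nucleotide exon (chr8:121821782-121821873) had 0.95 to 0.99 in the knock-downs, 0.89 in TKO and 0.95 in WT. The 216-nucleotide exon of Klhdc4 had 0.01 to 0.05 in the knock-downs, 0.36 in TKO and 0.25 in WT. Inclusion reads of the longer and shorter exon were 63 and 102 in TKO and 98 and 278 in WT, while the knock-downs had at most 3 for the longer and 99 to 204 for the shorter. Beside another downstream exon, at 121821280, the longer Klhdc4 exon was higher, with 0.19 to 0.59 in the knock-downs, 0.86 in TKO and 0.53 in WT, so its level depends on the neighbour in the event.

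Rpl18, which encodes a protein of the large ribosomal subunit, had the reverse order, with a 194-nucleotide exon (chr7:45720294-45720487) at 0.98 to 0.99 in the knock-downs, 0.92 in TKO and 1.0 in WT. The 50-nucleotide Rpl18 exon had 0.06 to 0.36 in the knock-downs, 0.15 in TKO and 0.14 in WT. On reads the Rpl18 gap was wide throughout, with 8921 and 331 for the longer and shorter exon in TKO, 22972 and 393 in WT, and at most 1 for the shorter in a knock-down.

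Ptbp1 encodes the polypyrimidine tract-binding protein, a repressor of exons, and its acceptors lie 165 nucleotides apart. The 31-nucleotide Ptbp1 exon (chr10:79856504-79856534) had 0.89 to 0.94 in the knock-downs, 0.70 in TKO and 0.71 in WT. The 196-nucleotide exon had 0.08 to 0.24 in the knock-downs, 0.26 in TKO and 0.21 in WT. Here it was the shorter exon that differed between transfected and untransfected libraries, while the longer was low in all 7.

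Bex1 and Cd247 showed the longer exon ahead through donors 42 and 150 nucleotides apart. Bex1, a small adaptor protein gene on the X chromosome (chrX:136214904-136214980), had levels of 0.90 to 0.93 for the longer and 0.16 to 0.26 for the shorter exon in the knock-downs. In TKO the Bex1 levels were 1.0 and 0.32, and in WT 0.92 and 0.26. Cd247, which encodes the zeta chain of the T cell receptor complex, had 0.98 and 0.60 for the longer and shorter exon in TKO and 0.97 and 0.68 in WT. In the knock-downs the Cd247 levels were 0.63 to 0.93 and 0.03 to 0.09, with no inclusion read for the shorter exon.

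At 1 or 2 nucleotides no pair was apart in TKO (22 pairs) or WT (21), while 2 to 4 of 13 to 15 were apart in each knock-down, with the longer exon higher in each. Cfap298, which encodes a protein of motile cilia, belongs here with acceptors 2 nucleotides apart and another acceptor 49 nucleotides farther in. Levels of its 168-, 166- and 117-nucleotide exons, which end at position 90930994 of chromosome 16, were 1.0, 0.99 and 0.99 in TKO and 0.99, 0.99 and 0.95 in WT. In the HP1alpha knock-down they were 0.92, 0.30 and 0.11, and over all knock-downs 0.91 to 0.96, 0.30 to 0.43 and 0.11 to 0.25. The Cfap298 levels were thus close together in TKO and WT and far apart in each knock-down. Even in WT the intervals of the 168-nucleotide exon (0.99 to 1.0) and the 117-nucleotide exon (0.9 to 0.98) did not overlap. Inclusion reads fell in the same order in TKO (920, 694 and 361) and WT (994, 769 and 342), and in the HP1alpha knock-down they were 441, 84 and 22.

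Smox has 6 variants in 1 family. The exons that end at position 131521171 of chromosome 2 include lengths of 760, 250 and 117 nucleotides. Their levels were 0.97, 0.95 and 0.89 in TKO and 0.98, 0.93 and 0.95 in WT. In the knock-downs they were 0.92 to 0.96, 0.36 to 0.74 and 0.12 to 0.38. The 760-nucleotide Smox exon was the highest of these in each knock-down.

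Across all pairs listed everywhere, the gap between variants was larger in the knock-downs. The median absolute difference over these 539 pairs was 0.07 in each knock-down, and 0.03 in TKO and in WT. In 195 pairs the gap was larger in all 5 knock-downs than in both TKO and WT, and in 66 pairs it was smaller. At 3 nucleotides these numbers were 15 and 1 of 45 pairs. The difference in inclusion reads between a pair's variants, as a share in percent, went the same way. Its median was 60.0% to 61.9% in the knock-downs, 33.2% in TKO and 31.6% in WT. Intervals were apart in 15.0% to 23.4% of pairs in the knock-downs, 23.2% in TKO and 22.6% in WT, where intervals were narrower. Longer reads, fewer informative reads per variant, wider intervals, transfection and HP1 loss coincide in these 5 libraries. Their parts in the larger gap cannot be told apart.

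**Figure D4:**
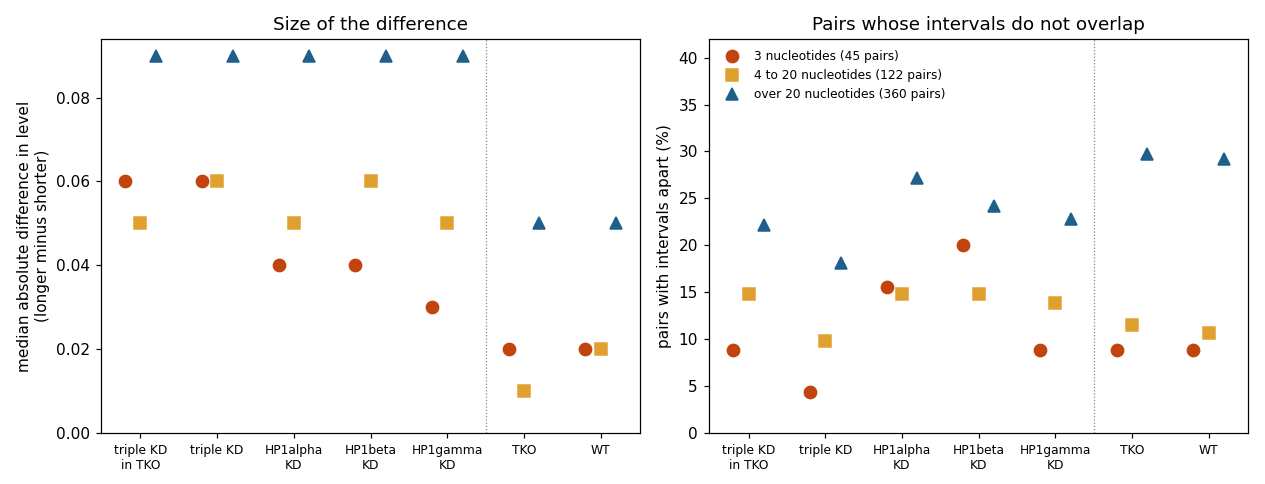
The same pairs in all 7 libraries (horizontal axis; KD, knock-down): median absolute difference in level between variants (left) and share of pairs whose intervals do not overlap in percent (right), by distance class. Over 20 nucleotides the median difference is 0.09 in the 5 knock-downs and 0.05 in TKO and WT; the dotted line parts transfected from untransfected libraries.

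The order of the variants itself turned in few pairs, and the intervals were apart in both directions in 1 of the 539 pairs. In 9 pairs the longer exon was higher in all 5 knock-downs and the shorter in both TKO and WT, and in 10 pairs the reverse held. Ewsr1, which encodes an RNA-binding protein of the FET family, was among these 10, with acceptors 3 nucleotides apart. Its longer exon (chr11:5079485-5079522) had 0.73, 0.65, 0.72, 0.49 and 0.70 in the triple knock-down in TKO, the triple, the HP1alpha, the HP1beta and the HP1gamma knock-down, 0.64 in TKO and 0.81 in WT. The shorter had 0.88, 0.90, 0.86, 0.88 and 0.77 in the knock-downs in the same order, 0.30 in TKO and 0.32 in WT. Ewsr1 inclusion reads for the longer and shorter exon were 176 and 68 in TKO and 251 and 70 in WT, against 45 and 60 in the triple knock-down in TKO, 18 and 37 in the triple, 40 and 57 in the HP1alpha, 28 and 64 in the HP1beta and 46 and 47 in the HP1gamma knock-down. The intervals of the Ewsr1 exons overlapped in all 5 knock-downs and were apart in TKO and WT.

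TKO cells were then compared with WT cells, the question being which variants differ in level where DNA methylation is lost. More variants were called higher than lower. Informative reads were compared with Fisher's exact test (two-sided), with Benjamini-Hochberg adjustment over all events that had at least 20 such reads in both libraries, and calls needed an adjusted p up to 0.05 with levels differing by 0.1 or more. Of 1319 variants tested out of 1749, 57 were higher and 19 lower in TKO, in 55 genes. The 76 calls are 5.76% of the variants tested, beside 4.57% of all events. The background was 3.18% higher and 1.39% lower. The test compares 2 pooled libraries and holds no spread between replicates.

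By distance, 8 of 132 variants at 3 nucleotides (6.06%), 25 of 341 at 4 to 20 (7.33%) and 48 of 891 at over 20 (5.39%) were called. None of 34 at 1 or 2 was called, and the share of all events was 4.57%. A variant can belong to several classes. The median absolute difference was 0.03 over the variants tested and 0.02 over all events tested. The reads of all 76 called variants moved in the direction of the level. In 34 of the 76 at least 1 of the 4 read counts was 0, beside 143 of the 352 called events of the whole table. Some of these differences rest on few skipping reads, such as 7 in TKO and 0 in WT for Nt5dc1. Inclusion odds were higher in TKO over all exons, with median log2 odds ratios of 0.20 to 0.32 by exon length. With these as the null value 47 variants were called higher and 28 lower, beside 4.35% of all events called.

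Of 640 pairs with both variants tested, 22 had both variants called, 15 had only the longer and 15 only the shorter called. The variants of a pair are tested on the same skipping reads (in all 840 pairs listed in TKO and all 814 in WT) and on partly the same inclusion reads. Calls in the same direction are therefore nearly fixed by construction, and whether the variants of a pair respond differently was not tested. The median gap between the changes of a pair's variants was 0.02. In 11 pairs the changes differed by at least 0.2, and Nt5dc1 and Clcn3 were those with called variants.

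**Figure D5:**
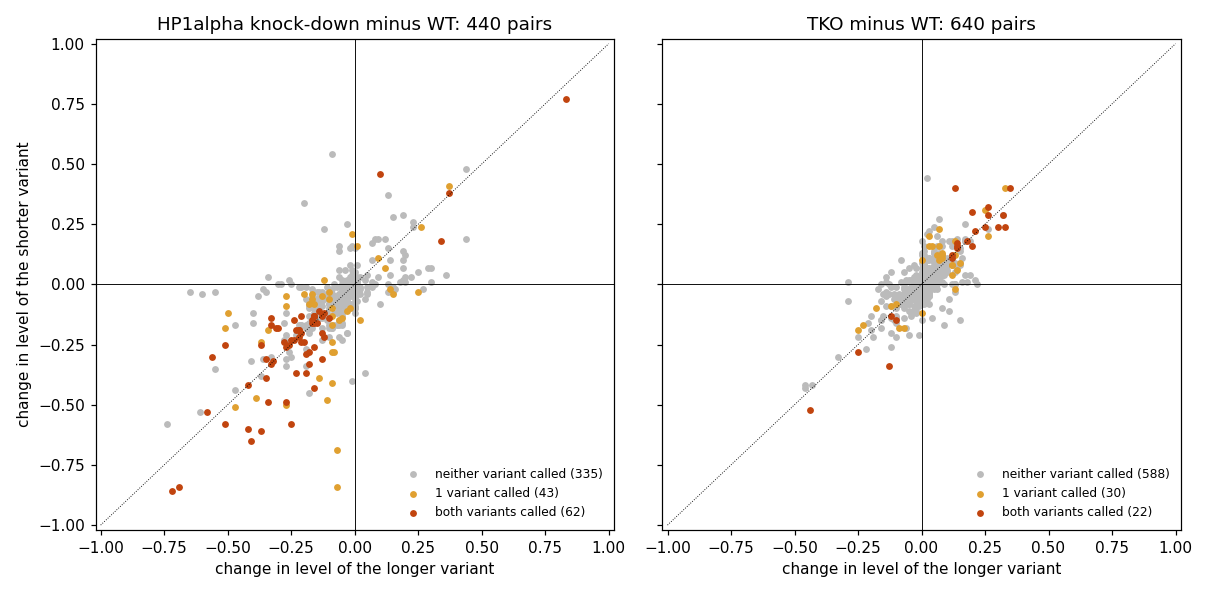
Change in level of the shorter variant (vertical axis) against that of the longer (horizontal axis), 1 point per pair, for the HP1alpha knock-down minus WT (440 pairs) and TKO minus WT (640 pairs). The dotted line marks equal change; the 62 and 22 pairs with both variants called lie at the lower left or upper right, and the variants of a pair share most of their reads.

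Usp1, which encodes a deubiquitinase of the Fanconi anaemia pathway, was the pair with a called variant in TKO both without and with the triple knock-down. Its exons have acceptors 19 nucleotides apart (chr4:98926436-98926674 and chr4:98926455-98926674). The longer exon had 0.93 in TKO and 0.72 in WT, and the shorter 0.93 in TKO and 0.71 in WT. The skipping reads were 20 in TKO and 115 in WT, beside 603 and 734 inclusion reads of the longer exon. Both Usp1 variants were called, with an adjusted p of 1.17e-10 for the longer and 1.8e-11 for the shorter exon (Fisher's exact test). Under the triple knock-down, with siRNA doses that differed between the lines, the longer exon had 0.72 in TKO cells and 0.42 in WT cells. The shorter exon had 0.71 and 0.33. Only the shorter exon of Usp1 had a called change there, with an adjusted p of 0.0202 (Fisher's exact test), and it was the only 1 of 741 variants tested to be called (all events 0.469%, with 0.246% higher and 0.224% lower).

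The variants called in TKO against WT, those of Usp1 included, were tested in the same way under the triple knock-down. That comparison shares no library with the first. Of the 76 called variants 42 could be tested, and 29 had the same sign, 10 the opposite sign and 3 no difference. A difference of at least 0.1 was seen in 11 with the same sign and in 3 with the opposite sign. For all 352 called events the numbers were 143 with the same and 58 with the opposite sign of 209 tested. Variants of a pair share reads, so these counts are not of independent observations. Median log2 odds ratios of inclusion over all exons, by exon length, were 0.20 to 0.32 without and -0.09 to 0.297 with the triple knock-down. Whether this general shift bears on the shared signs was not tested.

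Dedd encodes a death effector domain protein, and its 33-nucleotide exon (chr1:171331253-171331285) had 0.95 in TKO and 0.49 in WT beside the upstream exon at 171329569, on 53 inclusion and 0 skipping reads in TKO and 41 and 18 in WT (adjusted p = 8.15e-05, Fisher's exact test). Beside another upstream exon, at 171329145, the same Dedd exon had 0.76 in TKO and 0.58 in WT and its 52-nucleotide variant 0.59 and 0.42, and neither was called. The difference of the 33-nucleotide Dedd exon was thus 0.46 beside the first neighbour and 0.18 beside the other.

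Ankrd16 encodes an ankyrin repeat protein that in mouse binds alanyl-tRNA synthetase. Its 138-nucleotide exon (chr2:11785123-11785260) had 0.80 in TKO and 0.35 in WT, with 42 inclusion and 0 skipping reads against 15 and 6 (adjusted p = 0.0121, Fisher's exact test). The 91-nucleotide variant of Ankrd16 had 0.66 in TKO and 0.17 in WT, on too few reads in WT to be tested. Both variants of Ankrd16 were low in the 4 knock-downs that list them, at 0.13 to 0.29 and 0.04 to 0.09.

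Clcn3, which encodes a chloride and proton exchanger of endosomes, has donors 175 nucleotides apart, and its shorter exon moved more. The 76-nucleotide exon (chr8:60914753-60914828) had 0.85 in TKO and 0.45 in WT, and the 251-nucleotide exon 0.37 in TKO and 0.24 in WT. Inclusion reads of the longer and shorter Clcn3 exon were 179 and 208 in TKO and 100 and 94 in WT, beside 14 skipping reads in TKO and 52 in WT. Both were called, with adjusted p of 2.32e-08 for the longer and 1.21e-10 for the shorter (Fisher's exact test). The knock-downs of Clcn3 had 0.07 to 0.11 for the longer and 0.18 to 0.21 for the shorter exon.

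Lrrc14, a leucine-rich repeat gene, had 0.96 and 0.94 for its longer and shorter exon in TKO, against 0.61 and 0.54 in WT, with acceptors 66 nucleotides apart (chr15:76711356-76711530 for the longer). Its skipping reads were 0 in TKO and 10 in WT. Both Lrrc14 variants were called (adjusted p = 0.00235 and 0.00234, Fisher's exact test). In the knock-downs both stood at 0.11 to 0.20. Beside another form of the upstream exon, at 76710740, the longer Lrrc14 exon had 0.31 to 0.56 in the knock-downs, 0.95 in TKO and 0.74 in WT, with no skipping read in TKO or WT, and was not called in TKO against WT. Tenm4, which encodes a teneurin adhesion protein, had 0.79 and 0.75 for acceptors 4 nucleotides apart in TKO and 0.46 and 0.35 in WT. Only the shorter Tenm4 exon (chr7:96496248-96496340) was called (adjusted p = 0.0487, Fisher's exact test), a call lost when events with 10 or more informative reads were tested (adjusted p = 0.0503) or with the shifted null odds (adjusted p = 0.0639).

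Other pairs with both variants called rested on more reads. Mdm4 encodes a repressor of p53, and its acceptors 29 nucleotides apart gave 0.81 and 0.68 for the longer and shorter exon in TKO and 0.61 and 0.38 in WT. Git2, a regulator of Arf GTPases with donors 45 nucleotides apart, had 0.75 and 0.70 in TKO and 0.50 and 0.46 in WT. Rer1, a retrieval receptor of the Golgi with acceptors 81 nucleotides apart, had 0.58 and 0.48 in TKO and 0.40 and 0.30 in WT. Kif1c, a kinesin gene, had 3 acceptors within 74 nucleotides at 0.98, 0.97 and 0.97 in TKO and 0.72, 0.65 and 0.68 in WT, and its skipping reads were 0 in TKO and 25 in WT. Mdm4, Git2, Rer1 and Kif1c were chosen after their values were seen.

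Fewer variants fell in TKO. Phkb encodes a regulatory subunit of phosphorylase kinase, and its acceptors 17 nucleotides apart (chr8:85843004-85843112 for the longer exon) had 0.41 and 0.35 in TKO and 0.85 and 0.87 in WT. It had 21 and 15 inclusion reads beside 10 skipping reads in TKO, and 31 and 26 beside 0 in WT. Both Phkb variants were called (adjusted p = 0.0123 and 0.00465, Fisher's exact test). Nt5dc1, a gene of the nucleotidase-domain family with acceptors 3 nucleotides apart (chr10:34398114-34398198 for the longer), had 0.85 and 0.61 for the longer and shorter exon in TKO and 0.98 and 0.95 in WT. The 7 skipping reads in TKO, against 0 in WT, stood beside 61 and 23 inclusion reads in TKO and 92 and 47 in WT. Both Nt5dc1 variants were called (adjusted p = 0.0268 and 0.0126, Fisher's exact test), and the gap between them was 0.24 in TKO and 0.03 in WT.

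Mapt encodes tau, a microtubule-associated protein. Its exon variants of 759 and 711 nucleotides (chr11:104298498-104299256 for the longer) had 0.64 and 0.62 in TKO and 0.89 and 0.90 in WT, with 37 skipping reads in TKO and 8 in WT. Both were called (adjusted p = 7.73e-05 and 3.1e-05, Fisher's exact test). Another variant pair of Mapt, 198 and 97 nucleotides long at chr11:104305212-104305409, had the opposite order of libraries, with 0.64 and 0.59 in TKO and 0.38 and 0.36 in WT, and was not called.

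For Wbp1 the longer exon was called (0.45 in TKO, 0.70 in WT, adjusted p = 0.0177, Fisher's exact test), and the shorter was not (0.40 in TKO, 0.59 in WT, adjusted p = 0.0603). Wbp1 exons with the same acceptors and a donor farther downstream, 692 and 689 nucleotides long, had the opposite order of libraries, with 0.77 and 0.75 in TKO and 0.60 and 0.56 in WT, and were not called. Atp11a encodes a phospholipid flippase, and its 85-nucleotide exon (chr8:12861640-12861724) had 0.31 in TKO and 0.59 in WT beside the downstream exon at 12861912, with 44 inclusion and 40 skipping reads in TKO and 32 and 0 in WT (adjusted p = 4.42e-06, Fisher's exact test). Beside the downstream exon at 12864920 the same Atp11a exon had 0.37 in TKO and 0.45 in WT, with 34 and 30 skipping reads, and its 205-nucleotide variant 0.29 in both.

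The knock-downs were set against untransfected cells of the same line. Variants were mostly lower in them, as skipped exons were in general. In the triple knock-down against WT 22 variants were higher and 109 lower of 764 tested, 17.15% beside 11.2% of all events. The HP1alpha knock-down had 27 higher and 152 lower of 989 (18.1%, all events 11.8%), the HP1beta knock-down 30 and 143 of 936 (18.48%, all events 11.8%) and the HP1gamma knock-down 21 and 132 of 882 (17.35%, all events 11.4%). In TKO, the triple knock-down against untransfected TKO cells had 16 higher and 124 lower of 867 (16.15%, all events 12.3%). Of all events tested, those called higher were 1.83% for the triple, 1.64% for the HP1alpha, 1.92% for the HP1beta and 1.6% for the HP1gamma knock-down against WT, and 1.31% where TKO cells were transfected. Those called lower were 9.37%, 10.2%, 9.91% and 9.84% against WT, and 10.9% where TKO cells were transfected. The 4 comparisons with WT share that library and are given side by side only.

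The median difference of the variants was -0.06 in each of the 5 comparisons, against -0.03 or -0.04 over all events, and the median absolute difference 0.09 against 0.05 or 0.06. Median log2 odds ratios of inclusion ran from -1.33 to -0.16 over exon lengths and comparisons. With these as the null value the triple knock-down against WT gave 26 variants higher and 61 lower (all events 7.88% called). The triple knock-down in TKO cells against untransfected TKO gave 21 and 77 (all events 8.4%). Reads and levels moved in opposite directions in 6 to 9 called variants per comparison. Both variants of a pair were called in 46 to 62 pairs per comparison. These, too, are tests on partly shared reads, so the shared direction is no separate result.

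Morf4l1 encodes MRG15, a reader of methylated histone H3, and rose in each of the 5 comparisons, with both of its variants 3 nucleotides apart. The longer exon (chr9:90103655-90103771) had 0.91, 0.89, 0.93, 0.95 and 0.91 in the triple knock-down in TKO, the triple, the HP1alpha, the HP1beta and the HP1gamma knock-down, against 0.10 in TKO and in WT. The shorter Morf4l1 exon followed with 0.87 to 0.93 in the knock-downs, 0.12 in TKO and 0.11 in WT. No skipping read was seen in a knock-down, against 480 in TKO and 508 in WT. In the triple knock-down against WT the longer exon of Morf4l1 had an adjusted p of 1.41e-27 (Fisher's exact test).

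In Mtch2, which encodes a protein of the outer mitochondrial membrane, the variants differed. Its 27-nucleotide exon (chr2:90852840-90852866) had 0.80 in the triple knock-down in TKO, 0.72 in the triple, 0.80 in the HP1alpha, 0.74 in the HP1beta and 0.75 in the HP1gamma knock-down, against 0.33 in TKO and 0.29 in WT. The 51-nucleotide exon, with the acceptor 24 nucleotides upstream, had 0.06 to 0.11 in the knock-downs, 0.14 in TKO and 0.16 in WT. Inclusion reads of the longer Mtch2 exon were 0 in all 5 knock-downs, 45 in TKO and 65 in WT, and those of the shorter 23 to 52 in the knock-downs, 86 in TKO and 94 in WT. The shorter exon was called in the triple knock-down against WT (adjusted p = 0.00315, Fisher's exact test).

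Tdh encodes threonine dehydrogenase, an enzyme typical of mouse ES cells, and its acceptors lie 25 nucleotides apart (chr14:63494357-63494447 for the longer exon). The longer exon had 0.94 to 0.96 in the knock-downs, 0.99 in TKO and 0.86 in WT, and the shorter 0.85 to 0.90 in the knock-downs, 0.61 in TKO and 0.44 in WT. Skipping reads of the shorter Tdh exon were 12 to 33 in the knock-downs and 0 in TKO and WT, so its reads moved against its level.

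Kansl2, of the NSL histone acetyltransferase complex, has acceptors 92 nucleotides apart, and its longer exon (chr15:98531323-98531529) had 0.02 to 0.04 in the knock-downs, 0.80 in TKO and 0.74 in WT. The shorter Kansl2 exon had 0.0 to 0.02 in the knock-downs, 0.99 in TKO and 0.87 in WT. Kansl2 had 0 or 1 inclusion reads for the shorter exon in the knock-downs, against 564 in TKO and 615 in WT, and in the HP1alpha knock-down against WT its adjusted p was 9.51e-44 (Fisher's exact test).

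Pprc1, described above, was called lower for its longer exon in the triple knock-down against WT (0.23 and 0.99, adjusted p = 0.00129, Fisher's exact test). Skipping reads of Pprc1 were 2 to 5 in the knock-downs and 0 in TKO and WT, beside 36 to 105 inclusion reads of the longer exon in the knock-downs, 847 in TKO and 941 in WT, so few skipping reads carry this change. The 117-nucleotide Cfap298 exon fell to 0.11 in the HP1alpha knock-down, against 0.95 in WT (adjusted p = 0.0163, Fisher's exact test), on 3 and 2 skipping reads.

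Zfp961, a zinc finger gene with donors 4 and 70 nucleotides apart, depended on its neighbour. The 127-nucleotide exon (chr8:71965794-71965920) had 0.28 in the triple knock-down and 0.98 in WT beside the downstream exon at 71967899, and was called (adjusted p = 0.00478, Fisher's exact test). Beside the downstream exon at 71966100 the same Zfp961 exon had 0.72 in the triple knock-down and 0.99 in WT, on 11 and 613 inclusion reads, and the interval in the triple knock-down ran from 0.37 to 0.95.

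Rbm39 encodes a splicing factor related to U2AF, and its donors lie 119 nucleotides apart. Beside the upstream exon at 156179177 of chromosome 2, the 274-nucleotide exon had 0.64 in the HP1gamma knock-down and 0.13 in WT (adjusted p = 1.72e-42, Fisher's exact test), with 0 and 1546 skipping reads. The interval of Rbm39 in that knock-down, 0.26 to 0.96, was wide, and 978 of its 1035 reads fitted neither inclusion alone nor skipping alone. The 155-nucleotide variant of Rbm39 had 0.47 in the HP1gamma knock-down on 1 inclusion read, and 0.11 in WT.

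In Ewsr1 the shorter exon was called in the HP1beta knock-down against WT (0.88 and 0.32, adjusted p = 0.0092, Fisher's exact test), and the longer, at 0.49 and 0.81, was not. Its skipping reads were 0 in the HP1beta knock-down and 11 in WT. Lrrc14 fell in the triple knock-down in TKO to 0.14 for its shorter exon, against 0.94 in untransfected TKO cells, with an adjusted p of 2.74e-20 by Fisher's exact test.

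The variants were also grouped by lists of genes. Counts on a list are small and pairs share reads, so each is given beside the share of all events called in the same comparison. The list of chromatin and DNA methylation regulators had 14 genes with 34 variant events. Against WT, 3 chromatin events were higher and 7 lower of 22 in the triple knock-down (all events 11.2% called), 3 and 9 of 25 in the HP1alpha (11.8%), 3 and 7 of 23 in the HP1beta (11.8%) and 3 and 8 of 22 in the HP1gamma knock-down (11.4%). In TKO cells the triple knock-down had 3 events higher and 3 lower of 21 against untransfected cells (12.3%), and none of 21 was called in the triple knock-down in TKO against the triple knock-down (0.469%). The higher events were in Brd2 and Morf4l1 each time, and Mtf2 was among the lower in each comparison with untransfected cells. In the HP1alpha knock-down the median absolute difference of the list was 0.17 beside 0.05 over all events.

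Of 7 genes of hnRNPs and other splicing regulators, with 18 tested events in TKO against WT, only the 2 events of the Hnrnpr pair were called (all events 4.57%). Hnrnpr encodes an RNA-binding protein, and its acceptors 3 nucleotides apart (chr4:136314087-136314255 for the longer) had 0.88 and 0.87 in TKO and 0.76 and 0.75 in WT, with 30 and 106 skipping reads. Adjusted p was 0.000202 for the longer and 0.000199 for the shorter Hnrnpr exon (Fisher's exact test). Under the triple knock-down the levels were 0.53 and 0.47 in TKO cells and 0.43 and 0.37 in WT cells, which was not called. Beside another upstream exon, at 136311535, both Hnrnpr exons had 0.99 in TKO and 1.0 in WT. Of this list, against WT, 1 event was higher and 4 lower of 10 in the triple knock-down (all events 11.2%), 1 and 5 of 12 in the HP1alpha (11.8%), 2 and 5 of 11 in the HP1beta (11.8%) and 1 and 5 of 11 in the HP1gamma knock-down (11.4%), with Ptbp1 among the higher and events of Hnrnpd and Hnrnpr as the lower. In TKO cells the triple knock-down had 1 event higher and 2 lower of 11 against untransfected cells (12.3%), and none of 10 was called against the triple knock-down of WT cells (0.469%).

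Of 4 genes of splice site recognition (Acin1, Rbm39, Tial1 and U2af1l4) none of 14 events was called in TKO against WT, beside 4.57% of all events. In each knock-down against its untransfected line 2 events of 6 or 7 tested were called higher (all events 1.31% to 1.92% higher), both the 274-nucleotide Rbm39 exon beside a different neighbour. Beside the upstream exon at 156178880 the Rbm39 intervals of all 5 knock-downs overlapped that of the untransfected line, for example 0.11 to 0.96 in the triple knock-down and 0.39 to 0.46 in WT. Beside the exon at 156179177 they overlapped in both triple knock-downs, for example 0.04 to 0.68 against 0.11 to 0.14 in WT, and not in the other 3.

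Of 3 genes of SR proteins and their kinases (Clk2, Srsf6 and Srsf9) none of 6 events was called in 5 of the 7 comparisons, TKO against WT among them (all events 4.57%). Of the 6, 2 events of Clk2 were lower in the HP1gamma knock-down against WT (all events 9.84% lower) and 1 where transfected TKO cells were set against untransfected ones (10.9% lower). Of 10 genes of cytoskeleton, adhesion and polarity 2 of 28 events were lower in TKO against WT, the Mapt pair, whose variants share reads (all events 1.39% lower). Against WT, none of these was higher and 2 were lower of 15 in the triple knock-down (all events 11.2%), 1 and 2 of 20 in the HP1alpha (11.8%), 1 and 4 of 18 in the HP1beta (11.8%) and 0 and 2 of 17 in the HP1gamma knock-down (11.4%). In TKO cells the triple knock-down had 1 event higher and 5 lower of 18 against untransfected cells (12.3%), and none of 15 was called against the triple knock-down of WT cells (0.469%).

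Of 3 pluripotency genes (Sall4, Tcl1 and Tdh) 1 of 6 events was higher in TKO, in Tcl1 (all events 3.18% higher). Tcl1 encodes a coactivator of Akt, and its donors lie 49 nucleotides apart. Its shorter exon (chr12:105218708-105218829) had 0.91 in TKO and 0.68 in WT and was called (adjusted p = 0.0185, Fisher's exact test), and the longer had 0.99 in TKO and 0.92 in WT. Inclusion reads of the longer and shorter Tcl1 exon were 787 and 345 in TKO and 622 and 264 in WT, beside 0 skipping reads in TKO and 8 in WT. By level, 1 or 2 of the 6 events were higher in each knock-down against its untransfected line (all events 1.31% to 1.92% higher), all in Tdh. The Tdh reads that give these p-values moved towards skipping, against the level, so the calls give no direction for Tdh. The list of differentiated and fibroblast markers had 1 gene, Sox17, with 2 variant events, which had too few reads to be tested in TKO against WT.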

How the data were processed

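RNA of 7 groups was analysed here, and the bisulfite and MNase libraries of the series were not analysed here. Reads were aligned to mm10 with TopHat2 and Bowtie2, per the submitters' processing notes. Exon inclusion was estimated with MISO per the file headers, version not given in the sources used here. Then the authors pooled the 2 replicates of a group before deposit. The deposited inclusion level is a fraction from 0 to 1 with an interval, and the deposited read counts are per event and per class of compatible isoforms. Intervals and tests cover counting and estimation error only.

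Exon variants, pairs and read classes were derived with Python 3.11.15, pandas 2.3.3, numpy 2.4.6 and scipy 1.17.1, and figures with matplotlib 3.10.9. Reads that fit inclusion alone and skipping alone were compared between libraries with Fisher's exact test (two-sided), adjusted by Benjamini-Hochberg over all events with at least 20 such reads in both libraries. The procedure was tested on simulated data. Gene names came from the RefSeq annotation of GRCm38.p6, by position. The named exons were, per distance class, the 6 pairs apart in most libraries, then the largest called changes in each direction and comparison, then called members of the lists, and exceptions are stated where they occur. Members and gene lists were chosen with earlier results of these data known. Alternatives changed the read minimum, the neighbouring exons, the null odds and the definition of a difference. The result for 1 gene of the chromatin list in TKO against WT is not reported here.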

Additional observations from a re-analysis of the deposited data

How the results depend on the processing

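With the median odds ratio of exons of similar length as the null value, the triple knock-down against WT had 87 called variants instead of 131. The share of all events called fell as well, from 11.2% to 7.88%, and the cause was not tested. Over all alternatives the counts were 87 to 143 in that comparison (all events 7.88% to 11.91% called). Against WT they were 144 to 205 in the HP1alpha (8.99% to 12.51%), 121 to 187 in the HP1beta (8.6% to 12.8%) and 117 to 165 in the HP1gamma knock-down (8.61% to 12.51%). They were 98 to 160 where transfected TKO cells were set against untransfected ones (8.4% to 13.24%), and 64 to 80 in TKO against WT (4.05% to 4.88%). In the triple knock-down in TKO against the triple knock-down the count was 1 (0.43% to 0.53%). In WT, the pairs with intervals apart numbered 4 at 3 nucleotides, 15 at 4 to 20 and 128 at over 20. A level difference of at least 0.1 in place of the intervals gave 16, 40 and 192, and a difference of at least 0.1 in the share of inclusion among informative reads gave 1, 3 and 66. The alternatives could not reverse a direction, since each call takes its direction from the deposited level difference, which they leave unchanged. No paired analysis was possible because the replicates of each group were pooled before deposit, and for the same reason no replicate could be left out. Each group is 1 library, so differences between libraries and between conditions cannot be told apart. The knock-down libraries held fewer reads per variant, with wider intervals, so small gaps between variants were less detectable in them.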
